A study of Mus musculus with 16 samples.

Results

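Hearts in which Akt1 and Akt2 were both targeted in cardiomyocytes were compared with control hearts, over every gene that the arrays could measure. The comparison used 8 of the 16 arrays of the series, 4 labelled AKT1+AKT2 DKO (double knockout) and 4 labelled control, chosen by their titles, with 1 heart per array. All mice were male C57Bl/6 mice aged 3 months, and RNA came from the heart apex. DKO mice were homozygous for floxed Akt1 (exons 6 and 7 between loxP sites) and floxed Akt2 (exons 5 and 6) and heterozygous for MerCreMer, a Cre recombinase under the cardiomyocyte αMHC promoter. Control mice carried the heterozygous MerCreMer transgene and no floxed allele, so a floxed heart without Cre was not part of the comparison. All mice, controls included, were given hydroxytamoxifen, which switches MerCreMer on, at 500 µg daily over 5 days, and hearts were collected 21 days after induction. No further treatment was applied, which is what "untreated" in the titles refers to. The other 8 arrays, from hearts with Akt1 or Akt2 alone targeted (AKT1 KO and AKT2 KO, 4 each), entered the fit and are used for side-by-side values. Cre acts in cardiomyocytes only, while the RNA came from all cells of the apex. In such bulk RNA, fewer cells of a type and less RNA per cell cannot be told apart.

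AKT1 and AKT2 are the main AKT kinases of the heart. Insulin and IGF1 receptors activate PI3-kinase, its lipid product brings AKT to the membrane, and AKT then phosphorylates targets that control glucose uptake, mTORC1 and protein synthesis, FoxO transcription factors and cell survival. In heart muscle this pathway is known for its part in physiological growth and in the choice between glucose and fatty acids as fuel. A microarray reads RNA levels, not phosphorylation, so the values below describe transcripts.

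A level is given as log2 of the background-subtracted spot intensity minus the 75th percentile of its array, so that 1 unit is a 2-fold difference and a negative level lies below that percentile. Over the 8 arrays this percentile lay between 606.6 and 809.4 intensity units, and 43.1% to 52.8% of probes were well above background. The 4 hearts of a group limit the precision of every value. The DKO arrays varied more than the control arrays: the median SD of a gene was 0.248 log2 units in DKO hearts and 0.0901 in control hearts (n = 4 each). Without DKO replicate 3 the median SD in DKO hearts was 0.118. The median absolute difference from the control mean, over all genes, was 0.482 log2 units for DKO replicate 3, against 0.318, 0.332 and 0.303 for DKO replicates 1, 2 and 4. Each group lay in a column of its own on both slides, so that column and group cannot be told apart.

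**Figure D1:**
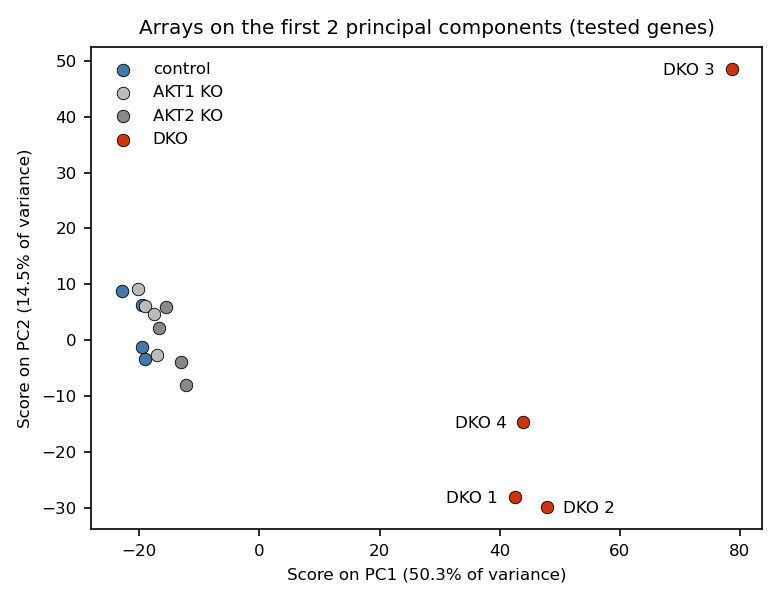
Scores of the 16 arrays on the first 2 principal components of the tested genes, 1 point per array, coloured by group. The DKO arrays lie between 42.5 and 78.6 on the first component (50.3% of the variance) and the control arrays between -22.9 and -19.1, and DKO replicate 3 is apart from the other DKO arrays on both components.

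The targeted genes were examined first. The brightest Akt2 probe read 4.92, 4.90, 4.83 and 4.98 on the control arrays and 2.84, 2.82, 3.04 and 2.92 on the DKO arrays. All DKO arrays lay below all control arrays, a difference of -2.002 log2 units or 4.01-fold lower (SE 0.089, exact 2-sided permutation p = 0.0286, the smallest that 70 splits of 8 arrays allow). The other 2 Akt2 probes differed by -2.27 and -1.15, also with no overlap between the groups (exact permutation p = 0.0286 each). The brightest Akt1 probe read 5.14, 5.17, 5.09 and 5.14 on the control arrays and 5.03, 5.07, 5.21 and 5.13 on the DKO arrays, and these values overlapped (difference -0.022, exact permutation p = 0.629). A second, dimmer Akt1 probe differed by 0.220 (exact permutation p = 0.171), so no fall of Akt1 RNA was detected on either probe. It is not known here whether either Akt1 probe falls inside the deleted exons, so Akt1 does not check the label.

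**Figure D2:**
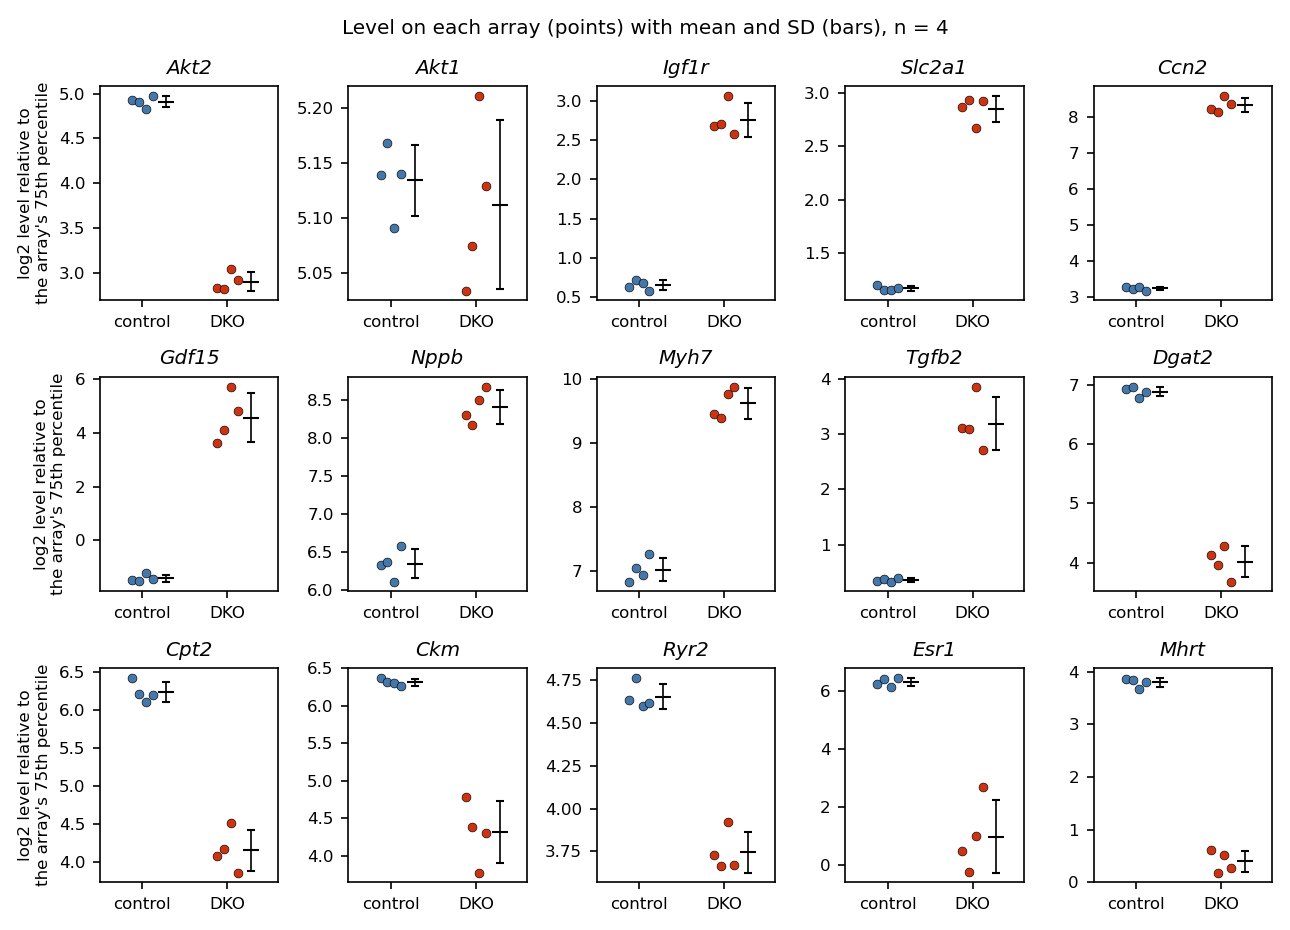
Level of 15 genes on each of the 4 control and 4 DKO arrays (points, in log2 units relative to the 75th percentile of the array, in order of replicate number) with the group mean and SD (bars, n = 4); each panel has its own scale. Akt1 is the panel in which the groups overlap, and in the other 14 panels no DKO array reaches the range of the control arrays.

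The question of the comparison was what targeting both kinase genes together changed in the heart. The change was broad: limma called 6257 of 13725 tested genes at an adjusted p under 0.05 (45.6%), 3354 of them higher (24.4%) and 2903 lower (21.2%) in DKO hearts. Most called changes were small, with 3147 (50.3%) under 1.5-fold, while 495 genes rose and 636 fell by at least 2-fold and 90 rose and 111 fell by at least 4-fold. The middle of the distribution did not move, with a median log2 difference of 0.017 over all genes, and 5% of genes lay below -0.994 and 5% above 0.878. For 6088 genes (44.4%) all DKO arrays lay above (3261) or below (2827) all control arrays, and 5503 genes were both called and separated in this way. With only the 8 arrays of the comparison in the fit 5284 genes were called, and without DKO replicate 3 there were 7020. With slide as a block the count was 6593, and within slide 1 and slide 2, which holds DKO replicate 3, it was 5648 and 2464.

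**Figure D3:**
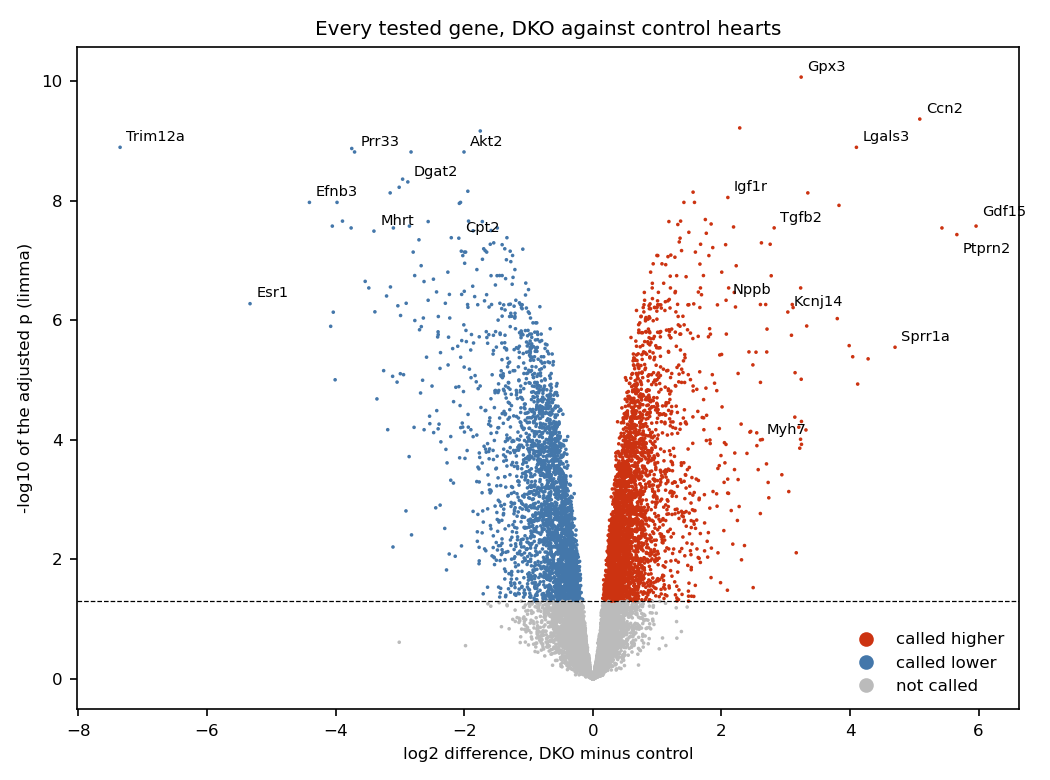
Every tested gene by its log2 difference, DKO minus control (horizontal), and -log10 of its limma adjusted p (vertical), with the 0.05 threshold dashed and called genes coloured by direction. Of 13725 genes 3354 were called higher and 2903 lower, and Ccn2, Gpx3, Lgals3, Gdf15 and Ptprn2 lie at the upper right, with Trim12a, Efnb3 and Esr1 at the upper left.

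The largest rises included secreted stress and matrix proteins. Gdf15, a circulating stress cytokine of the TGF-beta superfamily, read -1.48, -1.49, -1.22 and -1.43 on the control arrays and 3.62, 4.09, 5.71 and 4.81 on the DKO arrays. It rose by 5.96 ± 0.36 log2 units (SE, adjusted p = 2.67e-08), or 62.3-fold, and the lowest DKO array lay far above the highest control array. Ccn2, the matricellular protein also called connective tissue growth factor, read 3.27, 3.24, 3.28 and 3.18 on the control arrays and 8.23, 8.13, 8.59 and 8.36 on the DKO arrays. It rose by 5.09 ± 0.19 log2 units (SE, adjusted p = 4.33e-10), 34-fold, with little spread in either group. Lgals3 (galectin-3, a lectin of macrophages and injured tissue) read -0.41, -0.36, -0.27 and -0.46 on the control arrays and 3.48, 3.71, 4.30 and 3.42 on the DKO arrays and rose by 4.10 ± 0.17 log2 units (SE, adjusted p = 1.28e-09). Gpx3, the secreted glutathione peroxidase, read 3.18, 3.16, 3.25 and 3.17 on the control arrays and 6.57, 6.22, 6.44 and 6.48 on the DKO arrays and rose by 3.24 ± 0.10 log2 units (SE, adjusted p = 8.59e-11), the smallest adjusted p among the genes named. Nmrk2, a nicotinamide riboside kinase of muscle that feeds NAD synthesis, read 0.78, 0.26, 0.91 and 0.86 on the control arrays and 4.76, 5.71, 3.43 and 5.10 on the DKO arrays; the lowest DKO array was still well above the control range.

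Several of the largest rises started from RNA that was not measurable in control hearts. For such a gene the fold is a lower bound, computed with each dark array raised to the lowest signal well above background on that array. Sprr1a, a cornified-envelope protein known to be induced in stressed cardiomyocytes, was not well above background on any control array and rose at least 17.6-fold (adjusted p = 2.83e-06), with -0.63, -0.13, 1.93 and -0.45 on the DKO arrays. Plcxd2, a phospholipase-like protein, rose at least 7.25-fold, Nrip3 at least 3.48-fold and Loxl4, a lysyl oxidase that crosslinks collagen, at least 3.29-fold (adjusted p = 1.20e-08, 9.40e-07 and 4.93e-05). Sepsecs, an enzyme of selenocysteine synthesis, rose at least 6.49-fold on the probe that passed the filter, while a probe used without the filter differed by -0.030 (adjusted p = 0.917). Plekha7, an adherens junction protein that was well above background on 1 control array, rose by 4.28 log2 units, Cxcr6, a chemokine receptor of T cells (3 control arrays), rose by 4.12 and Timp1, an inhibitor of matrix proteases, rose by 3.32. Timp1 read 2.71, 3.13, 5.39 and 2.13 on the DKO arrays, a wide range that lay wholly above the controls at -0.12, -0.065, 0.28 and -0.002. Myc, the growth-promoting transcription factor, also measured on 3 control arrays, rose by 3.24 ± 0.37 log2 units (SE, adjusted p = 9.71e-06). A second kept Myc probe differed by 1.48, so the size of its rise rests on the probe. Ptprn2, a phosphatase-like protein of secretory vesicles which shares chromosome 12 with Akt1, rose at least 18.4-fold (adjusted p = 3.70e-08). Ptprn2 was also higher in AKT1 KO hearts against the same controls (adjusted p = 2.77e-08), and its second kept probe differed by 0.24 in DKO hearts.

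The promoter of Sprr1a is shown because it held the AP-1 motif more than once, in a gene that was dark in control hearts. The sequence is the RefSeq window from 250 bases before to 50 bases after the start (GRCm38.p6, chr3:92485832-92486131, minus strand), with TGANTCA in capitals.
Sprr1a: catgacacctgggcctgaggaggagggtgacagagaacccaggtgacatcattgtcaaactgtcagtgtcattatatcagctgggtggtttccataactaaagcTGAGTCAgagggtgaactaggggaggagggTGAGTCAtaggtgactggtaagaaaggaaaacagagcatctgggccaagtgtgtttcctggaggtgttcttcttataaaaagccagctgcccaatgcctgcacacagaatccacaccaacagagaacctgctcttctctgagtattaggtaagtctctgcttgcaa
It held 2 matches, the first at position -146 from the gene start. Over all 32851 windows of this length 7.81% held this motif on either strand. A match describes letters and not binding.

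The largest falls joined a nuclear receptor, lens crystallins, a mitochondrial enzyme and a noncoding RNA of the myosin locus. Trim12a, a tripartite-motif protein of the innate immune TRIM family, read 1.36, 1.25, 1.25 and 1.197 on the control arrays and was not well above background on any DKO array, a fall of at least 42.2-fold (adjusted p = 1.28e-09). Its other kept probe differed by -4.36. Esr1, estrogen receptor alpha, read 6.25, 6.41, 6.15 and 6.47 on the control arrays and 0.51, -0.24, 1.0003 and 2.70 on the DKO arrays. It fell by 5.33 ± 0.44 log2 units (SE, adjusted p = 5.29e-07), and the highest DKO array, replicate 4, remained below the lowest control array. MerCreMer contains ligand-binding sequence of this receptor, and whether the Esr1 probe reads the endogenous gene, the transgene or both is not known here. Myh6, the gene whose promoter drives the transgene, fell by 0.43 ± 0.12 log2 units (SE, adjusted p = 0.00703). Efnb3 (ephrin B3, a membrane-bound guidance ligand) fell by 4.41 ± 0.24 log2 units (SE, adjusted p = 1.07e-08) and Lgals4, galectin-4, by 4.01. Mhrt, a cardiac noncoding RNA transcribed antisense to Myh7, read 3.87, 3.85, 3.67 and 3.80 on the control arrays and 0.61, 0.18, 0.51 and 0.28 on the DKO arrays and fell by 3.40 ± 0.21 log2 units (SE, adjusted p = 3.24e-08). The beta-crystallin genes Crybb1 and Cryba4, known from the lens, fell at least 4.06-fold and by 3.75 log2 units, and Cryba4 was well above background on 2 DKO arrays.

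Igsf1, an immunoglobulin-family membrane protein, fell by 3.76 and Gpr22, an orphan receptor of the heart, by 3.54 log2 units (Gpr22 was well above background on 3 DKO arrays). Prr33 fell by 3.70, and it was also lower in AKT1 KO hearts (-0.97, adjusted p = 0.00983). Helt, a transcriptional repressor measured on 3 DKO arrays, fell by 3.39 (-1.43 in AKT1 KO hearts, 0.0358). A1cf, a cofactor of RNA editing, fell at least 3.98-fold and was -2.29 in AKT1 KO hearts (0.00525). Mrgprh, an orphan receptor, fell at least 3.02-fold, and Acsm5, a medium-chain acyl-CoA synthetase of mitochondria, at least 2.26-fold. Each of the 29 genes named here among the largest rises and falls also differed between DKO hearts and each single knockout by limma (adjusted p under 0.05), in the direction of the DKO change for 28 of them. The exception was Ptprn2, which was lower in DKO than in AKT1 KO hearts.

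The counts of each gene list below stand against the shares over all tested genes, 24.4% higher and 21.2% lower, and a median of 0.017. At the top of the pathway the receptor genes Igf1r and Insr and the adaptor gene Irs2 were higher. Of the 23 genes from insulin and IGF1 receptors to PI3-kinase, 11 rose, 6 fell and 6 did not pass the test (median log2 difference 0.33). Igf1r, the IGF1 receptor, read 0.64, 0.72, 0.68 and 0.58 on the control arrays and 2.68, 2.71, 3.07 and 2.58 on the DKO arrays and rose by 2.10 ± 0.11 log2 units (SE, adjusted p = 8.86e-09). Insr, the insulin receptor, read -0.35, -0.32, -0.37 and -0.29 on the control arrays and 0.69, 0.83, 0.28 and 0.87 on the DKO arrays and rose by 1.0004 ± 0.11 log2 units (SE, adjusted p = 8.24e-06). Irs2, the adaptor that links both receptors to PI3-kinase, rose by 2.26 ± 0.41 log2 units (SE, adjusted p = 4.62e-04), whereas Irs1 differed by 0.53 (adjusted p = 0.149). Pik3cb, a catalytic PI3-kinase subunit, rose by 0.93, Pik3r1, the main regulatory subunit, fell by 0.66, and Igfbp4, a secreted binding protein of IGF1, rose by 0.73 log2 units.

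Among 22 AKT kinases, regulators and substrates 1 rose, 4 fell and 17 did not pass, where 24.4% of all genes rose and 21.2% fell (median -0.043, and -0.015 without DKO replicate 3). With only the 8 arrays compared in the fit 2 fell, and without DKO replicate 3 2 rose. Besides Akt2 the falls included Foxo6, the FoxO factor with 0.61, 0.22, 0.61 and 0.67 on the control arrays and -1.18, -1.55, -1.53 and -1.54 on the DKO arrays, which fell by 1.98 ± 0.13 log2 units (SE, adjusted p = 7.26e-08). Them4, an AKT-binding thioesterase, fell by 0.46 ± 0.12 log2 units (SE, adjusted p = 0.00813), a call not kept on the 8 arrays alone (adjusted p = 0.0503). The chaperone Hsp90aa1, of which AKT is a client, rose by 0.85, and Gsk3b, the kinase that AKT inhibits, differed by -0.12 (95% interval -0.25 to 0.0083). Other kept Gsk3b probes differed by -0.19 and -0.33. Of 24 mTOR and translation control genes 2 rose and 3 fell, with 6 lower in the authors' values and 5 without DKO replicate 3. Eif4ebp1, the translation repressor that mTORC1 inactivates, read 4.72, 4.87, 4.64 and 4.68 on the control arrays and 6.202, 6.31, 6.69 and 6.28 on the DKO arrays and rose by 1.64 ± 0.16 log2 units (SE, adjusted p = 1.86e-06). Eif4e, the cap-binding factor that it holds, fell by 1.05 ± 0.12 log2 units (SE, adjusted p = 6.40e-06), and Mlst8, a subunit of both mTOR complexes, fell by 0.43. Mapkap1, which is specific to mTORC2, differed by 0.048 (-0.12 to 0.21) on its brightest probe and by 0.070 and -0.51 on other kept probes. Rictor, the other mTORC2 subunit, rose by 0.30, but not with normexp background correction (adjusted p = 0.303) and not without control replicate 4 (0.0701) or DKO replicate 2 (0.0512).

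FoxO factors, which AKT keeps out of the nucleus, had 25 tested target genes, of which 10 rose and 4 fell. Their median was 0.14, and 0.28 without DKO replicate 3. The members that rose included Insr, Eif4ebp1 and Bnip3, a mitophagy receptor that read 5.90, 5.77, 5.77 and 5.77 on the control arrays and 6.98, 6.75, 7.32 and 6.92 on the DKO arrays and rose by 1.19 ± 0.11. Sod2, the mitochondrial superoxide dismutase, read 4.14, 4.12, 4.03 and 4.08 on the control arrays and 2.98, 3.06, 2.15 and 3.03 on the DKO arrays and fell by 1.29 ± 0.15 log2 units (SE, adjusted p = 1.43e-05). The atrophy ubiquitin ligases Fbxo32 and Trim63 differed by -0.043 and 0.14 (adjusted p = 0.895 and 0.419). The FoxO letters GTAAACA stood in the promoter windows of 3 of 21 list genes with a window, against 3.24% of all tested genes with one. The list was built around FoxO, so this share describes the list and not the DKO change. Among genes called higher 3.52% held the letters, and among genes called lower 2.35%.

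Many transcripts of the stressed and fetal heart rose. Of 29 natriuretic peptide, fetal and stress genes 16 rose and 4 fell (median 0.65). Nppb, B-type natriuretic peptide, read 6.32, 6.37, 6.11 and 6.58 on the control arrays and 8.31, 8.17, 8.51 and 8.68 on the DKO arrays and rose by 2.07 ± 0.17 log2 units (SE, adjusted p = 4.64e-07). Nppa, atrial natriuretic peptide, read 6.94, 6.46, 6.64 and 7.11 on the control arrays and 9.15, 9.09, 9.41 and 9.45 on the DKO arrays and rose by 2.49 ± 0.27 log2 units (SE, adjusted p = 5.59e-06). In AKT1 KO hearts Nppa was also higher, by 1.47 (adjusted p = 0.0168), and in DKO it was above AKT1 KO (adjusted p = 0.00667). Ankrd1, a mechanical stress protein of the sarcomere, read 5.94, 6.16, 6.34 and 6.15 on the control arrays and 8.28, 8.27, 8.31 and 8.49 on the DKO arrays and rose by 2.19 ± 0.13, with 0.72 in AKT1 KO hearts (0.0175). Rcan1, an inhibitor and transcriptional target of calcineurin, rose by 2.07 ± 0.14 log2 units (SE, adjusted p = 5.46e-08), and Tnfrsf12a, the receptor of the cytokine TWEAK, rose by 2.22 ± 0.19 log2 units (SE, adjusted p = 6.01e-07).

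Of 16 secreted stress factors of the heart 9 rose and 1 fell (median 1.11, and 0.63 without DKO replicate 3). Besides Gdf15 they included Sfrp1, a secreted Wnt antagonist that rose by 1.33 ± 0.12, and Hbegf, a ligand of the EGF receptor that rose by 1.77 ± 0.24, with DKO replicate 3 highest at 3.97 and the others at 2.52 to 2.74. The fall was that of Fgf16, a cardiac fibroblast growth factor that read -1.80, -1.64, -1.97 and -1.59 on the control arrays and -4.11, -3.90, -3.02 and -3.82 on the DKO arrays, well above background on 3 of the 4 DKO arrays. On these values it fell by 1.97 ± 0.19 log2 units (SE, adjusted p = 2.28e-06), a size that takes in the array on which it was not measured.

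Markers of ventricular cardiomyocytes were lower in DKO hearts, with 9 of 10 markers called lower (median -0.43) and a mean level of 8.17 to 8.28 on control and 7.63 to 7.88 on DKO arrays. Myl3, the ventricular essential light chain, fell by 0.43, but under quantile normalization it differed by -0.16 (adjusted p = 0.0803), and there 4 of the 10 markers fell with a median of -0.18. The sarcomere and calcium lists below hold these 10 markers too. The part of this shift in the falls of sarcomere, calcium, channel and mitochondrial genes was not tested.

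The myosin heavy chain genes Myh7 and Myh6 moved in opposite directions. Myh7, the slow beta-myosin of the fetal heart, read 6.83, 7.03, 6.93 and 7.26 on the control arrays and 9.45, 9.38, 9.76 and 9.88 on the DKO arrays and rose by 2.61 ± 0.39 log2 units (SE, adjusted p = 1.00e-04), while the adult Myh6 fell as given above. Of 32 sarcomere genes 5 rose and 14 fell (median -0.26); with quantile normalization 9 fell and by the authors' values 8. Tnni3, cardiac troponin I, fell by 0.65 ± 0.11, Nebl, a Z-disc nebulette, fell by 0.64 ± 0.10, and Myom2, a titin anchor of the M-band, rose by 0.56 ± 0.10. Tnnc1, troponin C, differed by 0.0049 (95% interval -0.17 to 0.18).

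Many genes of calcium release and electrical activity fell. Of 27 calcium cycling genes 15 fell and 2 rose (median -0.45). Ryr2, the calcium release channel of the sarcoplasmic reticulum, read 4.63, 4.76, 4.60 and 4.61 on the control arrays and 3.73, 3.66, 3.92 and 3.67 on the DKO arrays and fell by 0.91 ± 0.10 log2 units (SE, adjusted p = 4.08e-06). Hrc, the histidine-rich calcium-binding protein of the same store, fell by 1.97 ± 0.18 log2 units (SE, adjusted p = 1.48e-06), and Trdn (triadin), which anchors it to the channel, fell by 1.04 ± 0.08. Atp2a2, the SERCA pump that refills the store, fell by 0.61 ± 0.10, its regulator Pln (phospholamban) fell by 0.80 ± 0.17, and Letm1, a mitochondrial cation exchanger, fell by 0.87 ± 0.089. Stim1, the sensor of store calcium, differed by -0.09 (-0.26 to 0.083).

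Of 32 ion channel and gap junction genes 16 fell and 5 rose (median -0.65). Kcnj5, a subunit of the acetylcholine-gated potassium channel, read 3.24, 3.24, 3.16 and 3.29 on the control arrays and 2.16, 1.79, 1.98 and 1.86 on the DKO arrays and fell by 1.28 ± 0.087 log2 units (SE, adjusted p = 7.01e-08). Kcnh2, the channel of the rapid repolarising current, fell by 1.44 ± 0.14, and Kcnd3, of the transient outward current, fell by 0.95 ± 0.092. Kcnj14, an inward rectifier encoded on chromosome 7 like Akt2, went the other way with -1.30, -1.16, -1.40 and -1.42 on the control arrays and 1.29, 2.54, 2.002 and 1.02 on the DKO arrays. Its difference from control was 3.03 in DKO, 4.90 in AKT2 KO and -1.59 in AKT1 KO hearts (adjusted p = 7.30e-07, 1.09e-07 and 0.0088).

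Of 22 adrenergic genes 3 rose (5 without DKO replicate 3) and 7 fell. Adra1b, an alpha-1 adrenergic receptor, read 3.38, 3.30, 3.34 and 3.26 on the control arrays and 1.12, 0.80, 2.24 and 1.07 on the DKO arrays and fell by 2.01 ± 0.24 log2 units (SE, adjusted p = 1.56e-05). Grk5, a kinase that desensitises beta-adrenergic receptors, rose by 1.36 ± 0.13, and the subunits of protein kinase A moved apart, the catalytic Prkaca by -0.64 and the regulatory Prkar1a by 1.18 (adjusted p = 1.34e-05 and 2.39e-05). Gnai2, an inhibitory G protein, differed by 0.014 (-0.14 to 0.17). Of 21 cardiac transcription factors 8 fell and 2 rose, with Hopx at -0.94, Irx4 at -0.87, Irx3 at -0.57 and Mef2a at -0.34 (adjusted p = 6.00e-04, 0.00207, 0.00313 and 0.00144). Tbx20 differed by 0.0063 (-0.25 to 0.26) on its brightest probe and by 0.084 and 0.64 on other kept probes.

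Most genes of mitochondrial fuel use fell. Of 40 genes of fatty acid uptake and oxidation 30 fell and none rose (median -0.95), where 21.2% of all genes fell; quantile-normalized and authors' values called 1 gene higher. The mean level of the list was 5.37 to 5.50 on the control arrays and 4.37, 4.49, 5.08 and 4.18 on the DKO arrays. DKO replicate 3 was thus below the controls by less than the other DKO arrays, and without it 34 genes fell (median -1.13). Dgat2, which makes triglyceride, read 6.93, 6.97, 6.79 and 6.88 on the control arrays and 4.14, 3.96, 4.28 and 3.68 on the DKO arrays and fell by 2.88 ± 0.14 log2 units (SE, adjusted p = 4.87e-09), 7.34-fold. Cpt2, which rebuilds acyl-CoA inside mitochondria, read 6.42, 6.21, 6.11 and 6.196 on the control arrays and 4.08, 4.17, 4.51 and 3.86 on the DKO arrays and fell by 2.08 ± 0.13 log2 units (SE, adjusted p = 4.25e-08). Ech1, an isomerase of unsaturated fatty acid oxidation, fell by 2.06 ± 0.11, and Hadh, the hydroxyacyl-CoA dehydrogenase, fell by 1.59 ± 0.10. Lpl, the lipase that frees fatty acids from lipoproteins, differed by 0.087 (-0.084 to 0.26).

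**Figure D4:**
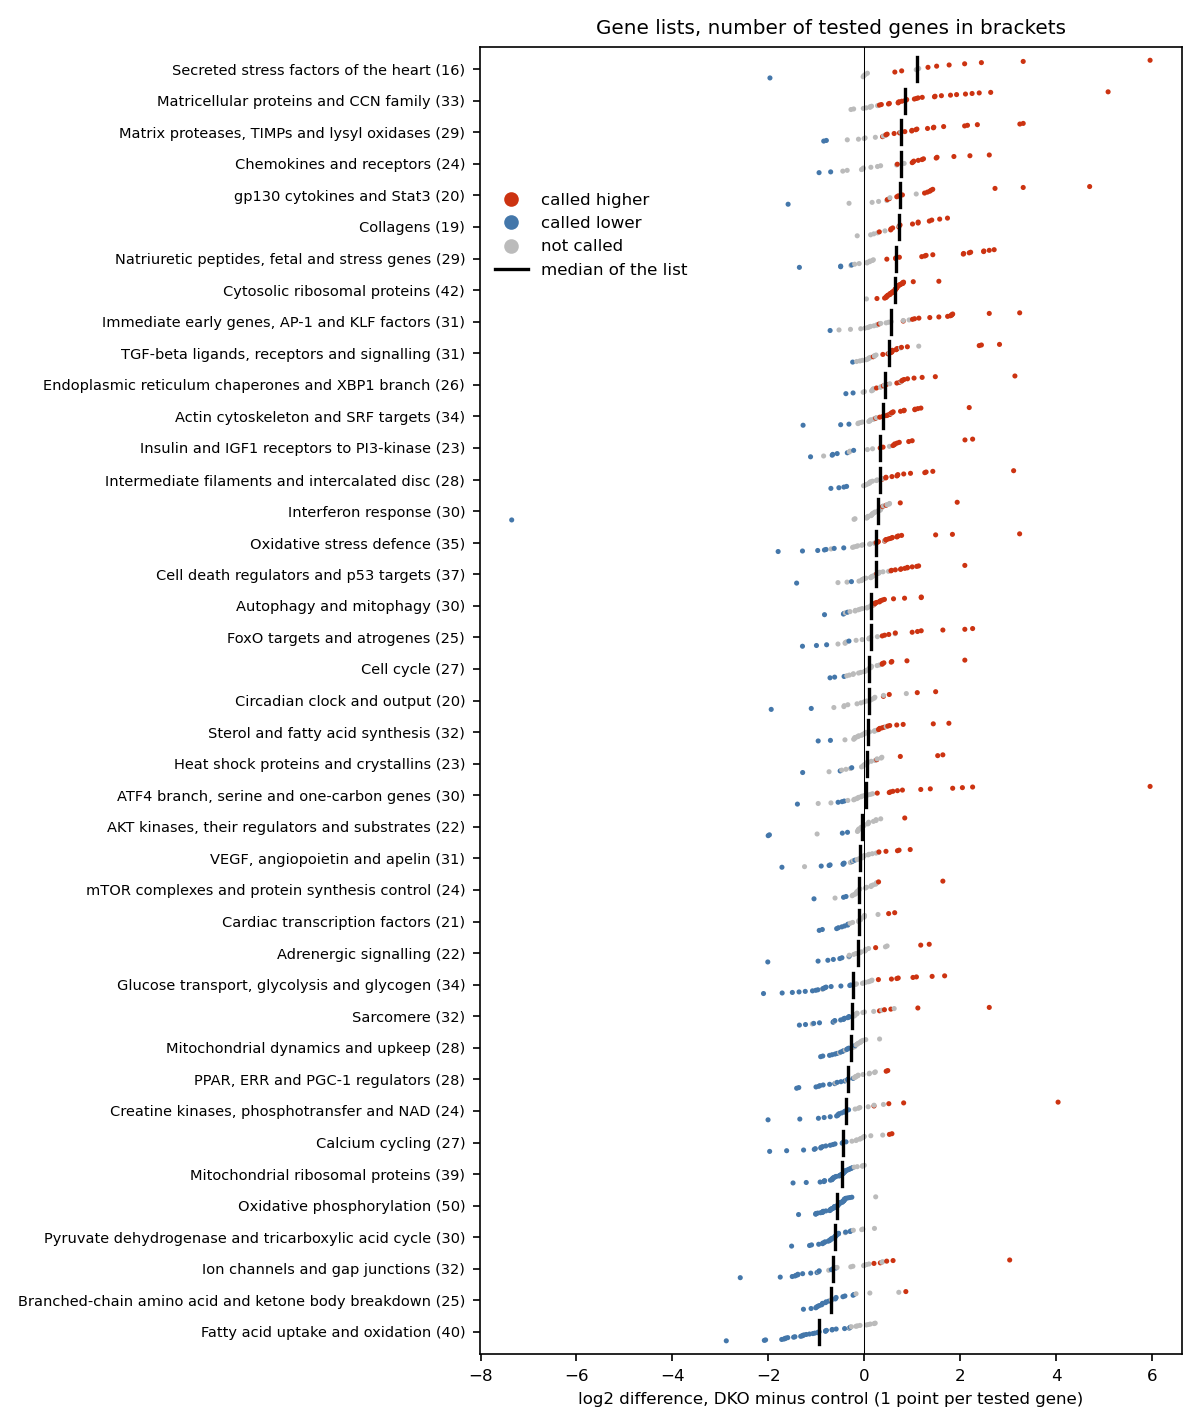
Log2 difference, DKO minus control, of every tested member of 41 gene lists (1 point per gene, red called higher, blue called lower, grey not called), with the median of each list as a black bar and lists ordered by it. Medians run from -0.95 for fatty acid uptake and oxidation to 1.11 for secreted stress factors, and the members of the oxidative phosphorylation and ribosomal protein lists lie close together.

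Of 50 oxidative phosphorylation genes 49 fell and none rose, with 1 higher under quantile normalization (median -0.56, range of the list -1.37 to 0.24). Ndufa9 of complex I read 6.47, 6.38, 6.26 and 6.34 on the control arrays and 5.49, 5.33, 5.24 and 5.38 on the DKO arrays and fell by 1.002 ± 0.087 log2 units (SE, adjusted p = 7.26e-07). The complex I subunits Ndufs8 and Ndufa10 fell by 1.01 and 0.86, and Uqcrc1 of complex III by 1.01 log2 units. Among 30 pyruvate dehydrogenase and tricarboxylic acid cycle genes 25 fell and none rose (median -0.62). Sucla2, a succinyl-CoA synthetase subunit, read 4.60, 4.47, 4.55 and 4.55 on the control arrays and 3.24, 3.07, 2.73 and 3.08 on the DKO arrays and fell by 1.51 ± 0.12 log2 units (SE, adjusted p = 2.58e-07). Mpc2, of the mitochondrial pyruvate carrier, fell by 1.10 ± 0.094, Pdhx, a core protein of the dehydrogenase, fell by 1.14 ± 0.094, and Cs, citrate synthase, fell by 0.69 ± 0.071. Got1, the cytosolic aspartate aminotransferase, differed by -0.029 (-0.25 to 0.19). The ERR letters TCAAGGTCA stood in the promoter windows of 2 of 37 oxidative phosphorylation genes with a window and in 0.36% of all tested genes with one. Among genes called lower 0.38% held the letters, and among genes called higher 0.23%.

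Of 34 genes of glucose transport, glycolysis and glycogen 8 rose (23.5%, against 24.4% of all genes) and 16 fell (47.1%, against 21.2%). Slc2a1, the insulin-independent transporter GLUT1, read 1.201, 1.15, 1.16 and 1.17 on the control arrays and 2.87, 2.93, 2.67 and 2.92 on the DKO arrays and rose by 1.68 ± 0.11 log2 units (SE, adjusted p = 5.36e-08). Slc2a4, the insulin-regulated transporter GLUT4, read 6.99, 6.86, 6.83 and 6.95 on the control arrays and 6.34, 6.19, 4.86 and 6.38 on the DKO arrays and fell by 0.97 ± 0.25 log2 units (SE, adjusted p = 0.00585). Pfkfb1, which makes the activator of phosphofructokinase, fell by 2.10 ± 0.21, Pfkm, the muscle phosphofructokinase, fell by 1.36 ± 0.17, and Ldhb, the heart lactate dehydrogenase, fell by 0.86 ± 0.11. Ugp2, which supplies glucose for glycogen, differed by -0.0076 (-0.26 to 0.25).

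Of 25 genes of branched-chain amino acid and ketone body breakdown 20 fell and 1 rose (median -0.69). Bckdha, of the branched-chain keto acid dehydrogenase, read 6.35, 6.31, 6.19 and 6.40 on the control arrays and 5.32, 5.05, 4.81 and 4.99 on the DKO arrays and fell by 1.27 ± 0.16 log2 units (SE, adjusted p = 1.74e-05), Pcca, of propionyl-CoA carboxylase, fell by 1.11, Acat1, a ketone thiolase, fell by 0.97 and Acad8, of valine breakdown, fell by 0.89. Of 28 PPAR, ERR and PGC-1 regulators 14 fell and 2 rose, with Rxrg, a retinoid X receptor, at -1.41, Sirt3, the mitochondrial deacetylase, at -1.01, Lpin1, a coactivator of PGC-1, at -0.95 and Tfam, the mitochondrial DNA transcription factor, at -0.56 (adjusted p = 3.64e-05, 1.90e-04, 2.89e-06 and 9.46e-05). Ppargc1a, the coactivator PGC-1alpha, differed by -0.37 and did not pass the test (adjusted p = 0.0955), and Rxrb differed by -0.026 (-0.25 to 0.20).

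Of 24 genes of creatine kinases, phosphotransfer and NAD 14 fell and 4 rose. Ckm, the cytosolic creatine kinase of muscle, read 6.37, 6.32, 6.30 and 6.26 on the control arrays and 4.78, 4.38, 3.77 and 4.31 on the DKO arrays and fell by 2.01 ± 0.18 log2 units (SE, adjusted p = 1.20e-06). Ckmt2, its mitochondrial partner, fell by 1.34 ± 0.094, and Nmnat1, a nuclear NAD synthase, fell by 0.84 ± 0.10, whereas Nmrk2 was among the largest rises. Of 28 genes of mitochondrial dynamics and upkeep 13 fell and none rose (1 rose under quantile normalization), among them Opa1 of inner membrane fusion (-0.91), Immt of the cristae (-0.86), the chaperonin Hspd1 (-0.67) and the import factor Timm44 (-0.61). Mfn2, of outer membrane fusion, differed by 0.033 (-0.13 to 0.20). Within slide 1 and within slide 2 the median was -1.09 and -0.81 for fatty acid oxidation and -0.61 and -0.55 for oxidative phosphorylation.

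The ribosomes of the cytosol and of mitochondria moved in opposite directions. Of 42 cytosolic ribosomal protein genes 41 rose and none fell (median 0.64), and within slides the medians were 0.47 and 0.79. Rps23 read 6.13, 6.14, 6.12 and 6.17 on the control arrays and 6.86, 6.85, 7.04 and 7.03 on the DKO arrays and rose by 0.81 ± 0.066 log2 units (SE, adjusted p = 4.64e-07). Rpl3 read 5.67, 5.50, 5.52 and 5.54 on the control arrays and 6.92, 6.96, 7.47 and 7.10 on the DKO arrays and rose by 1.56 ± 0.15 log2 units (SE, adjusted p = 2.02e-06), the largest rise of the list, with Rps4x at 0.77 and Rpl30 at 0.71. Rps2 was the 1 member that did not pass (0.046, 95% interval -0.17 to 0.26). Ribosomal protein genes have many processed pseudogenes of near-identical sequence, and probes may not separate them. Of 39 mitochondrial ribosomal protein genes 34 fell and none rose (median -0.46). Mrpl28 read 3.49, 3.53, 3.33 and 3.47 on the control arrays and 2.42, 2.23, 2.05 and 2.27 on the DKO arrays and fell by 1.21 ± 0.11 log2 units (SE, adjusted p = 7.66e-07), with Mrpl19 at -0.92 and Mrps9 at -0.83. Mrps12, encoded on chromosome 7 like Akt2, fell by 1.48 in DKO hearts and differed by -1.06 in AKT2 KO hearts (2.47e-05), and Mrpl17 differed by 0.0021 (-0.21 to 0.22).

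Of 35 oxidative stress genes 17 rose (48.6%, against 24.4% of all genes) and 7 fell, a share close to the 21.2% of all genes. With only the 8 arrays compared in the fit 9 rose and 7 fell. Besides Gpx3 and Sod2, Gsta4, a glutathione transferase, fell by 0.97 ± 0.11 (-0.55 in AKT1 KO hearts, adjusted p = 0.0273), and Prdx3, the mitochondrial peroxiredoxin, fell by 0.80 ± 0.092. Sod1, the cytosolic superoxide dismutase, differed by -0.028 (-0.22 to 0.16).

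The ATF4 branch raises amino acid supply when translation is stressed. Of its 30 tested genes 12 rose and 4 fell (median 0.04, and 0.16 without DKO replicate 3). Slc38a2, an amino acid transporter, read 3.32, 3.74, 3.47 and 3.61 on the control arrays and 5.16, 5.43, 6.50 and 6.09 on the DKO arrays and rose by 2.26 ± 0.25 log2 units (SE, adjusted p = 7.78e-06). Nupr1, a small stress-induced chromatin protein, read 0.71, 0.52, 0.45 and 0.49 on the control arrays and 1.59, 1.59, 2.31 and 1.39 on the DKO arrays and rose by 1.18 ± 0.16 log2 units (SE, adjusted p = 3.22e-05), and Gpt2, the mitochondrial alanine aminotransferase, fell by 1.39 ± 0.16. Aars, the alanyl-tRNA synthetase, read 2.96, 2.94, 2.96 and 2.99 on the control arrays and 2.91, 2.85, 3.01 and 2.89 on the DKO arrays and differed by -0.046 (-0.22 to 0.13). The ATF4 letters TGATGNAAN stood on either strand in a promoter window of 2.89% of all tested genes with one. Among genes called higher the share was 2.88%, and among genes called lower 2.87%. The list was built around ATF4, so the share among its members describes the list and not the DKO change. Of the 27 list genes with a promoter window 9 (33.33%) held the letters, against 4.5% of all genes with a window. Among these 9, Atf3, Chac1, Trib3, Nupr1 and Gars rose (1.85, 1.38, 0.60, 1.18 and 0.52), Vldlr fell (-0.46), and Asns, Pck2 and Aars did not pass the test (0.13, 0.077 and -0.046). The windows of Nupr1 (GRCm38.p6, chr7:126625421-126625720, minus strand) and Aars (chr8:111033592-111033891, plus strand) are shown side by side, a gene that rose and one that did not, with the motif in capitals.
Nupr1: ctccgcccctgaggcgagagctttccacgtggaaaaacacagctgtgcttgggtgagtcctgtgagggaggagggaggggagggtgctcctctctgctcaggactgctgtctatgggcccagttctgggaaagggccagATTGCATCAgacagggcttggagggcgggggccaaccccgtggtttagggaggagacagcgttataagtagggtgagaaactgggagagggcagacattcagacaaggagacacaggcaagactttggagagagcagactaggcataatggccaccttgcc
Aars: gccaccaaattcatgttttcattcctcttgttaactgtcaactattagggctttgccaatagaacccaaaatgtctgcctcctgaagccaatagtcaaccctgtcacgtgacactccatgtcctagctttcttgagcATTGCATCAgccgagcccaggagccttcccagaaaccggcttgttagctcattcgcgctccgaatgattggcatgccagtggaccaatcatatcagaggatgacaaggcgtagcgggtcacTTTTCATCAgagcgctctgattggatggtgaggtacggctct
Both hold the same letters, ATTGCATCA, at nearly the same distance, position -111 from the start of Nupr1 and -113 from that of Aars, and Aars has a second match after its start.

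Of 26 endoplasmic reticulum chaperone and XBP1 genes 13 rose and 2 fell (median 0.44), and 19 rose without DKO replicate 3. P4hb, protein disulfide isomerase, read 2.89, 2.94, 2.90 and 2.95 on the control arrays and 3.94, 4.17, 4.33 and 4.07 on the DKO arrays and rose by 1.21 ± 0.094 log2 units (SE, adjusted p = 2.89e-07). Xbp1, the transcription factor of this branch, rose by 1.04 ± 0.088, Selenos, of protein degradation at the membrane, rose by 0.83 ± 0.078 and the co-chaperone Dnajb11 rose by 0.68 ± 0.068. Sel1l, of the same degradation machinery, differed by -0.022 (-0.21 to 0.16) on its brightest probe and by 0.51 on another kept probe. Of 23 heat shock genes 4 rose (2 on the 8 arrays alone) and 3 fell, both shares below those of all genes. The small heat shock proteins went apart, Hspb1 0.75, Hspb8 -0.50 and Hspb3 -1.28 (adjusted p = 1.38e-04, 0.00256 and 1.28e-06). Hspa1a, the inducible HSP70, rose by 1.64 with overlapping groups, a call not kept on the 8 arrays alone (adjusted p = 0.0581), and the co-chaperone Ahsa1 differed by -0.019 (-0.25 to 0.21).

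Of 30 autophagy and mitophagy genes 13 rose and 4 fell (7 without DKO replicate 3). Gabarapl1, a member of the ATG8 family, read 5.86, 5.93, 5.89 and 5.86 on the control arrays and 7.21, 7.09, 6.84 and 7.16 on the DKO arrays and rose by 1.19 ± 0.10 log2 units (SE, adjusted p = 4.50e-07). Sqstm1, the cargo receptor p62, rose by 0.84 ± 0.11, Map1lc3a, an LC3 gene, fell by 0.83 ± 0.10, and Atg12 differed by 0.069 (-0.079 to 0.22). Of 37 cell death and p53 target genes 13 rose and 2 fell. Phlda3, a repressor of AKT induced by p53, read 2.48, 2.39, 2.40 and 2.23 on the control arrays and 3.22, 3.25, 3.13 and 3.50 on the DKO arrays and rose by 0.90 ± 0.11 log2 units (SE, adjusted p = 2.31e-05). Casp12, a caspase of the endoplasmic reticulum, rose by 0.85 ± 0.11, Bok, a BCL2-family member, rose by 0.90 ± 0.13, and Ccng1, cyclin G1, fell by 1.41 ± 0.12, while the apoptosis inhibitor Birc2 differed by -0.059 (-0.21 to 0.091). Of 27 cell cycle genes 7 rose and 3 fell (1 on the 8 arrays alone), or 25.9% and 11.1% against 24.4% and 21.2% of all genes. The cyclin-dependent kinase inhibitors Cdkn1a (p21), Cdkn2b (p15) and Cdkn1b (p27) rose by 2.10, 0.89 and 0.38 log2 units (adjusted p = 7.78e-04, 0.00219 and 0.00502). A second kept Cdkn1a probe differed by only 0.13, so the size of its rise rests on the probe. Pcna, of DNA replication and repair, rose by 0.41 (adjusted p = 0.00176). Cdkn2b was well above background on 3 control arrays.

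Some early response transcription factors rose. Of 31 immediate early, AP-1 and KLF genes 14 rose and 1 fell (median 0.56), the other 16 did not pass, and within slide 1 9 rose. Besides Myc, the small MAF factors Maff and Mafk rose by 2.61 and 1.83 log2 units (adjusted p = 5.46e-07 and 1.71e-06). Junb, a partner of FOS in AP-1, read 1.98, 2.29, 2.12 and 2.04 on the control arrays and 3.24, 3.31, 3.85 and 3.50 on the DKO arrays and rose by 1.37 ± 0.13 log2 units (SE, adjusted p = 1.71e-06). Fos and Egr1 differed by 0.82 and 0.56 and did not pass the test (adjusted p = 0.191 and 0.0905). Of 20 genes of gp130 cytokines and Stat3, which act in injured heart muscle, 13 rose and 1 fell (median 0.75). Il6st, which encodes gp130 itself, read 3.12, 3.23, 3.11 and 3.07 on the control arrays and 4.01, 3.86, 3.69 and 3.80 on the DKO arrays and rose by 0.71 ± 0.092 log2 units (SE, adjusted p = 2.76e-05). Fgl2, a membrane-bound prothrombinase, rose by 1.43 ± 0.17, and it was 0.77 in AKT1 KO hearts (adjusted p = 0.0468).

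Of 34 actin cytoskeleton and SRF target genes 19 rose and 3 fell (median 0.40). Myl12a, a regulatory light chain of non-muscle myosin, rose by 1.05 ± 0.12 log2 units (SE, adjusted p = 6.04e-06). Lima1, an actin-bundling LIM protein, read 1.82, 1.82, 1.82 and 1.82 on the control arrays and 2.25, 2.21, 2.46 and 2.48 on the DKO arrays and rose by 0.53 ± 0.072 log2 units (SE, adjusted p = 4.07e-05). Fhl2, a LIM protein of the cardiac sarcomere, went down with 8.22, 7.98, 8.04 and 8.12 on the control arrays and 6.79, 6.81, 6.63 and 7.04 on the DKO arrays and fell by 1.27 ± 0.11 log2 units (SE, adjusted p = 7.67e-07). The CArG box, the letters SRF binds, stood in a promoter window of 1.73% of all tested genes with one. Among genes called higher the share was 1.78%, and among genes called lower 2.01%. The list was built around SRF, so the share among its members describes the list and not the DKO change. Against 1.81% of all genes with a window, the box stood in those of 7 of 31 list genes (22.58%). Of these, Cnn2, Myl9 and Lima1 rose (0.60, 0.49 and 0.53), Fhl2 fell, and Srf, Actg1 and Vcl did not pass the test (-0.076, -0.13 and 0.25). A window of Lima1 (GRCm38.p6, chr15:99820100-99820399, minus strand) and 1 of the 2 windows of Fhl2 (chr1:43196712-43197011, minus strand) are printed with the CArG box in capitals, since the genes moved in opposite directions.
Lima1: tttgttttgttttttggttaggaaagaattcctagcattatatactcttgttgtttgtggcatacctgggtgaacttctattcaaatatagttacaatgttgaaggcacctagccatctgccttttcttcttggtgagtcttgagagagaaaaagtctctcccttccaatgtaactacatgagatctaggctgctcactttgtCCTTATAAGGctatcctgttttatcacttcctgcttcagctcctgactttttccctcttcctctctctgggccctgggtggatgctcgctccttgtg
Fhl2: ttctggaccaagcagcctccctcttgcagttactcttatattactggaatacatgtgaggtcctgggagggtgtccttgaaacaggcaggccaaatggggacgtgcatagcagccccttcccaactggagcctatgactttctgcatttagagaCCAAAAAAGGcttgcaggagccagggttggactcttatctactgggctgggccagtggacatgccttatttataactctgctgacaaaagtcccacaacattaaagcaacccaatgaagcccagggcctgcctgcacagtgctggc
The box began at position -47 from the Lima1 start and -96 from this Fhl2 start.

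Of 28 intermediate filament and intercalated disc genes 13 rose and 4 fell. Krt18, a keratin of simple epithelia, read -1.76, -1.73, -1.43 and -1.36 on the control arrays and 1.65, 1.26, 2.23 and 1.06 on the DKO arrays and rose by 3.12 ± 0.27 log2 units (SE, adjusted p = 6.14e-07), 8.67-fold. Des (desmin), the filament of muscle, read 5.15, 5.199, 5.24 and 5.27 on the control arrays and 6.29, 6.40, 7.04 and 6.29 on the DKO arrays and rose by 1.29 ± 0.15 log2 units (SE, adjusted p = 1.26e-05). Xirp2 and Nrap, actin-binding proteins of the disc, rose by 1.43 and 0.97 (adjusted p = 3.76e-06 and 1.00e-05), and Dsp, the desmosomal protein desmoplakin, differed by 0.021 (-0.17 to 0.21).

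Most tested extracellular matrix genes rose. Of 19 collagen genes 13 rose and none fell (median 0.72), and of 33 matricellular genes 25 rose and none fell (median 0.85). Within slides 1 and 2 these medians were 0.69 and 0.62 for collagens and 0.69 and 0.97 for matricellular genes. Col3a1, a main fibrillar collagen of the heart, read 3.42, 3.51, 3.48 and 3.29 on the control arrays and 4.60, 4.80, 5.57 and 4.37 on the DKO arrays and rose by 1.41 ± 0.19 log2 units (SE, adjusted p = 4.32e-05). Col1a1 and Col1a2, the chains of type I collagen, rose by 1.36 and 1.12, and Col16a1 by 1.01 (adjusted p = 6.68e-05, 5.37e-05 and 3.49e-05). Thbs4, a thrombospondin induced in stressed hearts, read 0.17, 0.057, 0.12 and 0.11 on the control arrays and 1.95, 1.53, 2.50 and 1.67 on the DKO arrays and rose by 1.80 ± 0.17 log2 units (SE, adjusted p = 1.89e-06). Cilp, a matrix protein of cardiac fibrosis, read -1.25, -1.21, -1.65 and -1.51 on the control arrays and 0.87, 1.22, 2.73 and 0.11 on the DKO arrays; DKO values were widely spread but all above the controls. Cilp rose by 2.64 ± 0.40 log2 units (SE, adjusted p = 9.88e-05). Dcn, the proteoglycan decorin, rose by 0.52, and Ltbp1, a latent TGF-beta binding protein, differed by 0.042 (-0.18 to 0.26).

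Of 29 matrix protease, TIMP and lysyl oxidase genes 19 rose and 2 fell (median 0.76). Besides Timp1 and Loxl4, the metalloproteases Mmp19 and Mmp23 rose by 1.10 and 0.99, and the protease inhibitor Serpine2 by 0.74 (adjusted p = 6.59e-06, 2.93e-05 and 4.23e-05). Of 31 genes of the TGF-beta pathway 16 rose and 1 fell (median 0.52, and 0.34 without DKO replicate 3). Their mean level was 0.66 to 0.71 on control arrays, 1.63 on DKO replicate 3 and 1.12 to 1.19 on the other DKO arrays. The ligand Tgfb2 read 0.35, 0.38, 0.34 and 0.41 on the control arrays and 3.103, 3.09, 3.85 and 2.71 on the DKO arrays and rose by 2.82 ± 0.17 log2 units (SE, adjusted p = 2.86e-08), 7.07-fold. The ligand Tgfb3 rose by 0.90 ± 0.066, the activin and myostatin antagonist Fstl3 rose by 2.44 ± 0.36, and the repressor Tgif1 rose by 0.78 ± 0.089. For Fstl3 DKO replicate 3 was far above the others, at 3.77 against 1.65 to 1.82 in the other DKO hearts and -0.38 to 0.12 in control hearts.

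Fibroblast markers moved with these groups. All 10 fibroblast markers were called higher (median 0.71), and their mean level was 2.97 to 3.07 on control and 3.82 to 4.21 on DKO arrays. The matrix lists hold some of these markers too, Col1a1, Col1a2, Col3a1 and Dcn among them. Dpt, dermatopontin and in none of those lists, rose by 0.68 ± 0.08. Of 9 tested activated fibroblast markers 8 rose and 1 fell, with a mean level of 0.83 to 0.87 on control and 1.80 to 3.34 on DKO arrays, the highest on DKO replicate 3. Postn (periostin) rose by 2.25 ± 0.51, Fn1 (fibronectin) rose by 0.89 ± 0.16 and Meox1, a transcription factor of activated fibroblasts, rose by 0.96 ± 0.18. Cthrc1 was not well above background on any control array and was on 3 DKO arrays. The part of these markers in the matrix result was not tested.

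Growth factor and vessel genes showed no shared direction. Of 31 VEGF, angiopoietin and apelin genes 5 rose and 9 fell, and 9 rose and 10 fell without DKO replicate 3. Apln, the peptide apelin, read 1.07, 1.40, 1.26 and 0.97 on the control arrays and -0.74, -0.59, -0.37 and -0.45 on the DKO arrays and fell by 1.72 ± 0.12 log2 units (SE, adjusted p = 9.57e-08). Fgf1, a fibroblast growth factor of cardiomyocytes, fell by 0.73 ± 0.13, Edn1, the vasoconstrictor endothelin-1, rose by 0.96 ± 0.19 and the PDGF receptor Pdgfra, also a fibroblast marker, rose by 0.69 ± 0.10, while Nos3, endothelial nitric oxide synthase, differed by -0.037 (-0.22 to 0.14).

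Of 24 chemokine and receptor genes 12 rose and 2 fell (median 0.76). Cxcl5, a neutrophil chemokine, was not well above background in control hearts and rose at least 2.41-fold (adjusted p = 1.10e-05). Ccl8, a monocyte chemokine, read -1.36, -1.12, -0.86 and -1.17 on the control arrays and 1.18, 1.49, 1.40 and 0.25 on the DKO arrays and rose by 2.20 ± 0.38 log2 units (SE, adjusted p = 3.15e-04), and the lymphocyte chemokines Ccl19 and Ccl25 rose by 1.24 and 1.001 log2 units. Of 14 macrophage and myeloid markers 9 rose and none fell in the same hearts, with a mean level of -0.070 to 0.10 on control and 0.38 to 1.02 on DKO arrays. Gpnmb, of lipid-laden macrophages, was not well above background on any control array, passed the filter only through the DKO hearts, where it was high, and rose at least 6.07-fold. Without Gpnmb 8 of 13 markers rose, and the mean level was 0.26 to 0.46 on control and 0.51 to 1.23 on DKO arrays. Trem2 rose by 0.98, Cd68 rose by 0.80 and the scavenger receptor Mrc1 rose by 0.48 (adjusted p = 0.0084, 0.0152 and 0.0122). The part of these cells in the chemokine result was not tested.

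The count of interferon response genes depended on DKO replicate 3. Of 30 genes 4 rose and 1, Trim12a, fell with all arrays, while 21 rose without DKO replicate 3 (median 0.29 and 0.54). Within slide 1 the median was 0.51 and within slide 2, with DKO replicate 3, -0.022. Ifit2 read -1.58, -1.46, -1.23 and -1.66 on the control arrays and 0.76, 0.56, -0.13 and 0.64 on the DKO arrays and rose by 1.94 ± 0.16 log2 units (SE, adjusted p = 5.54e-07), and it was 0.84 in AKT1 KO hearts (0.0242). Ifit1, of the same family, rose by 0.75 with overlapping groups, and the RNA sensor Ddx58 rose by 0.38, a call not kept with the mean of its probes (adjusted p = 0.207). The ubiquitin ligase Trim25 differed by 0.067 (-0.11 to 0.25).

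Of 32 sterol and fatty acid synthesis genes 11 rose and 2 fell (4 under quantile normalization). Scd1, the desaturase that makes oleate, read -1.42, -1.46, -1.39 and -1.47 on the control arrays and 0.31, 0.64, 0.14 and 0.23 on the DKO arrays and rose by 1.77 ± 0.11 log2 units (SE, adjusted p = 3.51e-08). The desaturase Fads2 rose by 0.81 ± 0.09, and the sterol enzymes Lss and Cyp51 moved apart, 1.44 and -0.96 (adjusted p = 3.83e-04 and 5.72e-04), with Fdps at -0.0045 (-0.16 to 0.15); Lss was well above background on 3 control arrays. Of 20 clock genes 4 rose (2 on the 8 arrays alone) and 2 fell (4 without DKO replicate 3), both shares below those of all genes. Rora, a nuclear receptor of the clock, read 3.12, 3.11, 3.102 and 3.1002 on the control arrays and 3.66, 3.55, 3.67 and 3.65 on the DKO arrays and rose by 0.52 ± 0.06 log2 units (SE, adjusted p = 1.01e-05). The output factor Hlf fell by 1.10 ± 0.19, Ciart, a repressor of the clock measured on 1 DKO array, fell by 1.94 ± 0.26 and Bhlhe40 rose by 1.11 ± 0.27.

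Markers of the other cell types of the apex changed less uniformly. Of 10 blood endothelial markers 1 rose and 1 fell, Vwf by 0.87 and Kdr by -0.42, the latter not on the 8 arrays alone (adjusted p = 0.0699), and the mean level overlapped, 3.06 to 3.19 on control and 2.97 to 3.31 on DKO arrays. Of 7 lymphatic markers Pdpn and Mmrn1 rose (0.83 and 0.57) and Prox1 fell (-0.47). Among 10 smooth muscle and pericyte markers 3 rose, Tagln and Cnn1 among them (0.76 and 0.83), and Abcc9 fell (-0.65), while 6 rose without DKO replicate 3. Acta2, smooth muscle actin, fell by 0.49 on its brightest probe, but its other 2 probes differed by 0.55 and 1.18 and their mean by 0.41 (adjusted p = 0.159), so its direction rests on the probe. Of 7 atrial markers Nppa and Dkk3 rose (Dkk3 by 2.004) and Kcnj3 and Stard10 fell by 1.75 and 0.65, while Sln and Bmp10 were not well above background on all arrays of either group.

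No neutrophil marker (5 tested) or lymphocyte marker (6 tested) was called by limma, and 1 of each was called lower without DKO replicate 3. The nearest to the threshold were Mmp8 (0.45, adjusted p = 0.157) and Cd4 (-0.33, 0.098; called with the replicate block, 0.0222). The mast cell marker Fcer1a was well above background on 3 control and 2 DKO arrays, so that its size is not given. It was called lower, but this call was lost in 15 of 22 alternatives. Among them were quantile normalization, the authors' values, the 8 arrays alone (adjusted p = 0.0652) and the replicate block (adjusted p = 0.0558). With 1 array left out its adjusted p reached 0.126. Of the Schwann cell and neuron markers Th, tyrosine hydroxylase, fell by 0.81, and S100b rose by 0.75 with overlapping groups. The adjusted p of S100b was 0.0533 under the replicate block and reached 0.107 in another alternative outside the fits within a slide. Adipocyte markers split, with Cfd 2.31, Cidec at least 1.93-fold higher, Adig -2.67, measured on 3 DKO arrays (-1.39 in AKT1 KO hearts, adjusted p = 0.00216) and Lep -0.48, and Adipoq and Plin1 were not well above background on any control array. No epicardial or red cell marker was called (Tbx18 0.29, 0.0745; Slc4a1 -0.41, 0.265). Of the skeletal muscle markers Ckm, Tnni2 and Tnnc2 fell (Tnni2 and Tnnc2 by 1.66 and 0.75), and Myh1, Myh2, Myh4 and Actn3 were not well above background on any array of either group.

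**Figure D5:**
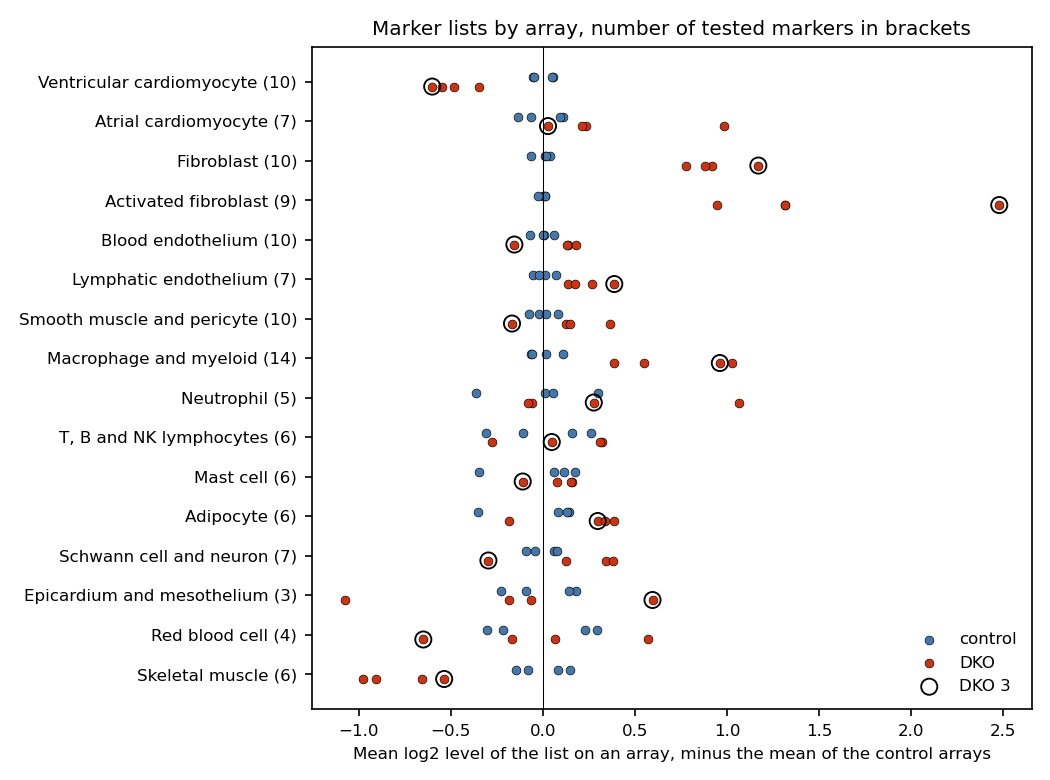
Mean log2 level of the tested markers of 16 lists on each array, minus the mean of the 4 control arrays, with control arrays in blue, DKO arrays in red and DKO replicate 3 circled. Fibroblast, activated fibroblast, macrophage and lymphatic lists lie above the controls on every DKO array, ventricular cardiomyocyte and skeletal muscle lists below them, and the other lists overlap or lie close to the control arrays.

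A total of 9 lists held 1 member each that was not well above background on any array of control or of DKO hearts, which alters the count of such a list by at most 1. A gene that was not called was not thereby shown to be unchanged. Of the 7468 genes not called, 6569 had a 95% interval reaching beyond a 1.2-fold difference, and over all tested genes 899 (6.55%) had an interval wholly within it. Among these, on the probe used, were Tnnc1, Gnai2, Fdps, Mapkap1 and Sod1, given above, each next to members of its own list that changed. Another kept Mapkap1 probe differed by -0.51. For the lists of which no member was called in a direction, an unadjusted limma p under 0.05 would add Cox6a1, Tomm20, Cpa3 and Tbx18 as higher and the matricellular gene Ogn as lower, and no other member.

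The single knockouts were read against the same 4 control arrays, so their values are given side by side only. Against control limma called 6257 genes in DKO, 109 in AKT1 KO and 18 in AKT2 KO hearts. DKO hearts differed from AKT1 KO hearts in 6450 genes (47%) and from AKT2 KO hearts in 5780 (42.1%). For Igf1r the differences from control were 2.10 in DKO, 0.093 in AKT1 KO and -0.085 in AKT2 KO hearts, and the DKO level differed from both single knockouts (adjusted p = 1.43e-08 and 7.62e-09). For Cpt2 they were -2.08, -0.32 and -0.21 (2.18e-07 and 1.45e-07), and for Ccn2 5.09, 0.83 and 0.30 (1.38e-09 and 1.03e-09).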

How the data were processed

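RNA of 16 heart apexes was hybridised to 1-colour Agilent arrays, 1 array each. Per the file headers, the deposited spot intensities were read and background-subtracted by Agilent Feature Extraction 12.0.3.1, on a design built on mm9. The authors' deposited series table holds log2 values; set against the scanner values, they were quantile-normalized and centred on each probe's median, with column medians of -0.024 to 0.013, and were used as an alternative only.

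The main value was log2 of the processed intensity minus the 75th percentile of its array, averaged over spots of a probe. Probe accessions were matched to RefSeq symbols, giving 32994 of 56605 probes (58.3%) a symbol, for 22911 genes. Spots flagged as outliers were left out, and 118 probes without an unflagged spot on every array were dropped. A probe was kept if 1 group or more had it well above background on each of the 4 arrays. The brightest kept probe stood for its gene, which gave 13725 tested genes. limma 3.58.1 in R 4.3.3 fitted 1 mean per group over all 16 arrays, with Benjamini-Hochberg adjustment over the genes tested and a threshold of 0.05; every adjusted p and SE is from this fit unless another is named. Scripts were tested on simulated data in which the spread of each group was scaled by its median SD on the real arrays. Noise was drawn independently for every value, so a displaced array such as DKO replicate 3 was not imitated. Far fewer genes were shifted than were called on the real arrays. Of genes shifted by 0.5, 1 and 2 log2 units, 27 of 66, 59 of 67 and 64 of 67 were called. Beside these, 35 unshifted genes were called, a larger share of the calls than the threshold of 0.05 stands for. The share of false calls on the real arrays was not estimated. Promoter windows came from RefSeq (GRCm38.p6), with a window for 194 of the 238 named genes.

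The named genes comprise Akt1 and Akt2, those of the 15 greatest increases and 15 greatest decreases with separated groups (clone and predicted names passed over), up to 4 called members of each list with the smallest adjusted p, the member nearest the threshold of a list without calls, and the member of each list with the narrowest interval within 1.2-fold. Genes named outside this rule, chosen after their values were seen, were Irs1, Irs2, Pik3r1, Fbxo32, Trim63, Myh6, Atp2a2, Slc2a4, Ppargc1a, Postn, Fos and Egr1, and the list members given for a promoter motif or an unadjusted p. A few genes that the rule picks are not reported here. The comparison, the gene lists and the marker lists were chosen with earlier results of these data known.

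Arrays of control and DKO hearts with the same replicate number shared a slide and a row. Their deviations from the group means correlated over genes (r = 0.160, 0.316, 0.140 and 0.242 for replicates 1 to 4). Differently numbered arrays of the same slide also correlated (r = 0.130, 0.238, 0.072 and 0.098), and those of different slides correlated negatively (-0.272 to -0.086). These values do not separate a shared slide from a numbered pair. The main fit and the permutation tests did not use the numbers as pairs. A fit with the replicate number as a block over all 16 arrays is among the alternatives. The others changed background correction, scaling, filter, probe choice, weights, prior, slide and the arrays used.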

Additional observations from a re-analysis of the deposited data

Results flagged for a closer look

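For each of the 238 named genes the 4 control and the 4 DKO values were searched for an array that lay far from the other 3 of its group. Of 476 such groups 37 held one by Dixon's criterion at the 95% level, where chance alone marks about 1 group in 20. Levels below are in log2 units relative to the 75th percentile of the array.

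DKO replicate 3 was the distant array most often. It was the highest DKO array for Hbegf (3.97), Fstl3 (3.77), Hopx (4.77), Des (7.04), Bok (-0.38), Tbx18 (-0.167) and Tnni2 (-0.773). It was the lowest for Igsf1 (-1.63), Sod2 (2.15), Nebl (1.65), Pfkm (5.15), Rxrg (2.32), Sirt3 (2.00), Gpt2 (-1.24), Kdr (3.50) and Abcc9 (2.91).

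DKO replicate 4 was far above the other DKO arrays for the stress gene Ankrd1 (8.49) and the M-band gene Myom2 (9.25). It was also the highest for Crybb1 (-5.30), A1cf (-5.32) and Acsm5 (-5.45), which were not well above background on any DKO array. DKO replicate 1 was the highest for Foxo6 (-1.18).

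Among control arrays, replicate 1 was the highest for Bnip3 (5.90) and Fcer1a (-3.27) and the lowest for Pln (6.38). Control replicate 2 was the highest for Hspa1a (0.551) and the lowest for Foxo6 (0.219), Ahsa1 (6.12), Cdkn1a (0.137) and Cd4 (1.15). Control replicate 3 was the lowest for Trdn (5.06), Prkaca (5.28), Ltbp1 (0.780), Rpl30 (5.62) and Bhlhe40 (-0.574), and control replicate 4 for Mmp19 (-2.01) and Prox1 (2.44).

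Probes that matched no gene symbol were outside the comparison. Fitted in the same way, 2180 of 7056 such probes (30.9%) were called between DKO and control hearts, 987 higher and 1193 lower.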

How the results depend on the processing

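The count of 6257 genes called between DKO and control hearts stayed within 1.5 times its value under every alternative except the arrays of slide 2 alone, which gave 2464 genes (2715 for DKO against AKT1 KO and 1903 for DKO against AKT2 KO hearts). Leaving out 1 array at a time gave 5276 to 7020 genes against control, 5660 to 7365 against AKT1 KO and 4887 to 6514 against AKT2 KO hearts. With only the 8 arrays of DKO and AKT1 KO hearts in the fit, 4195 genes were called. The fit with the replicate number as a block over all 16 arrays gave 6340 genes against control. In that fit the AKT1 KO arrays did not all share the slide and row of the same-numbered control and DKO arrays. A block for slide and row, which keeps each control array with the DKO array beside it, gave 6528 genes. Among the named genes the replicate block ended the calls of Fcer1a and S100b, added that of Cd4, as given above, and changed no other call.

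Of the 209 named genes that were called, 170 were called in the same direction in every alternative and 39 lost the call at least once, 29 of them only within a single slide. Besides the genes given above as depending on a setting, no other named gene lost its call outside the fits within a slide. Of these, 2 changed sign: Sepsecs was at -0.030 (adjusted p = 0.917) without the filter, where another probe was the brightest, and Acta2 was at 0.41 (adjusted p = 0.159) with the mean of its probes. No scaling moved the median of all genes by over 0.1 log2 units, but every scaling brings the arrays to a common level and so largely sets that median. The medians of 13 of the 57 lists changed sign in at least 1 alternative. These were the AKT, heat shock, blood endothelial, epicardial and red cell lists, and within a single slide only, the mTOR, interferon, clock, atrial (0.36 to -0.58), smooth muscle (0.17 to -0.012), lymphocyte, mast cell and adipocyte lists. Without DKO replicate 3 the median of 19 lists moved by over 1.5 times or changed sign, and within slide 1 and slide 2 that of 26 and 22. The list counts without DKO replicate 3, under other scalings, on the 8 arrays and within slides were computed after seeing the data.

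The 4 arrays of a group and the wider spread of DKO hearts limit small differences, and a gene measured on no array of a group carries a bound only, while 1 measured on some of them has a size that rests partly on background. Slide 2 holds 4 of the 8 arrays, DKO replicate 3 among them.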
